A study of Mus musculus with 17 samples.

Results

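The transcripts of 10 antioxidant enzymes were examined in hearts that carry a proofreading-deficient mtDNA polymerase. The genes were taken by name from a table of 56748 genes, and all 10 were among the 16195 that passed the filter on low counts. They are the superoxide dismutases *Sod1*, *Sod2* and *Sod3*, catalase (*Cat*), the glutathione peroxidases *Gpx1*, *Gpx3* and *Gpx4*, the peroxiredoxins *Prdx3* and *Prdx5*, and the thioredoxin reductase *Txnrd2*. *Sod2*, *Prdx3* and *Txnrd2*, whose products work in the mitochondrial matrix, were set against the other 7.

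RNA from heart tissue of 17 mice aged 12 to 16 months was sequenced, with 1 library per heart, and no treatment was given. Which part of the heart was taken is not given in the sources used here. The 9 hMut mice had the genotype *Polg* iMut/iMut; +/Ckmm-cre. In this model cre recombinase under the muscle creatine kinase promoter removes a wild-type *Polg* cassette, so that both alleles express POLG D257A in heart muscle cells and other cells of the heart keep the wild-type enzyme. The 8 control mice are labelled Ctrl, and their alleles and cre status are not given in the sources used here. Total counts lay between 32915159 and 46486964 per heart. *Polg* itself was 1.67-fold higher in hMut (edgeR's quasi-likelihood test, Benjamini-Hochberg adjusted p = 0.000448), and all 9 hMut hearts lay above the Ctrl median. Gene counts cannot show the D257A change.

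Superoxide leaks from the respiratory chain and is turned into hydrogen peroxide by superoxide dismutases, 1 in each compartment: SOD1 in the cytosol, SOD2 in the mitochondrial matrix and SOD3 outside the cell. Hydrogen peroxide is then reduced by catalase in peroxisomes, by glutathione peroxidases and by peroxiredoxins, of which PRDX3 works in the matrix and is kept reduced by thioredoxin 2 and TXNRD2. Heart muscle is rich in mitochondria and holds much SOD2 and PRDX3.

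Of the 10 enzymes, 4 are selenoproteins, in which a TGA codon inside the reading frame is read as selenocysteine, the residue that does the chemistry. These codons are shown because they set *Gpx1*, *Gpx3*, *Gpx4* and *Txnrd2* apart from the other 6 genes, whose reading frames hold no such codon. Each line gives the 30 bases around the codon on the coding strand (GRCm39, GENCODE M39 annotation), with TGA in capitals.
Gpx1 (chr9:108216636-108216665, exon 1 of 2, codon 47 of 201): atgtcgcgtctctcTGAggcaccacgatcc
Gpx3 (chr11:54798068-54798097, exon 2 of 5, codon 73 of 226): acgtagccagctacTGAggtctgacagacc
Gpx4 (chr10:79890557-79890586, exon 3 of 7, codon 73 of 197): acgtggcctcgcaaTGAggcaaaactgacg
Txnrd2 (chr16:18296508-18296537, exon 17 of 18, codon before the last of 527): ctgtgactggttgcTGAggctaagtcacca
In the glutathione peroxidases the codon lies in the first part of the reading frame, whereas in *Txnrd2* it is the last codon but 1, near the end of the protein.

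Levels were first ranked between genes per length of transcript, as TPM (each gene's length-corrected share of all transcripts), in the Ctrl hearts. *Gpx4*, which reduces lipid peroxides in membranes, stood highest at 425 ± 32 TPM (SD, n = 8), and *Prdx3* was next at 422 ± 27.8 TPM; the ranges of these genes overlapped. *Prdx5*, found in mitochondria, peroxisomes and cytosol, followed at 285 ± 23.0 TPM, below every *Prdx3* value. *Cat* had 205 ± 24.7 TPM and the secreted peroxidase gene *Gpx3* 201 ± 28.7 TPM. *Prdx5*, *Cat* and *Gpx3* overlapped as neighbours in this order. *Sod2* lay below these at 138 ± 8.25 TPM, and *Sod1* below *Sod2* at 82.1 ± 8.27 TPM. The gene of the secreted dismutase, *Sod3*, had 18.2 ± 2.38 TPM and overlapped *Txnrd2* at 15 ± 1.51 TPM. *Gpx1* came last at 4.62 ± 0.782 TPM.

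**Figure D1:**
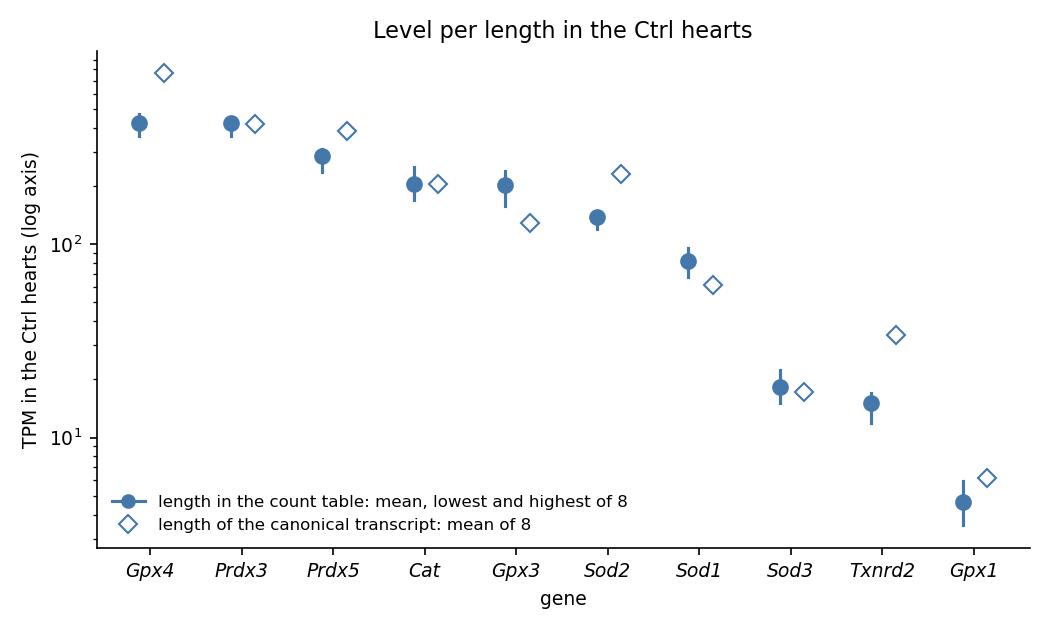
Level per length of the 10 transcripts in the 8 Ctrl hearts, in TPM on a log axis. Circles and lines give the mean, lowest and highest heart with the gene length of the count table, and open diamonds the mean with the length of the canonical transcript. *Gpx4* was first and *Gpx1* last with both lengths, and *Sod2* moved from 138 to 230 TPM.

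How the length given in the table was derived is not stated in the sources used here, and it differed from the canonical transcript in both directions. For *Sod2* it was 10008 bases against 5983 in the canonical transcript. For *Sod1* it was 3970 against 5315 and for *Gpx3* 1813 against 2843, and it was also the shorter for *Sod3* and *Prdx3*. With canonical lengths, an alternative added after the data were seen, 5 genes changed rank: *Sod2* rose to the fourth place at 230 TPM, *Cat* and *Gpx3* moved down by 1 place each, and *Txnrd2* passed *Sod3* at 34.0 TPM. Leaving out Ctrl replicate 1 or Ctrl replicate 4 exchanged the ranks of 2 genes.

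The low value of *Gpx1* is uncertain. Its count was only 85 to 246 per library, and an antisense lncRNA (ENSMUSG00000121068, chr9:108216011-108217311, minus strand) covers 84.0% of its exonic bases. Whether reads were counted by strand is not given in the sources used here, and reads that lie on both genes may be assigned to neither; the lncRNA itself had 0 or 1 count per library. *Gpx4* shares 99.6% of 555 aligned bases with the pseudogene *Gpx4-ps2*, which received 18.6% as many counts, so some of its reads may be assigned to the copy. *Sod1* and *Prdx5* overlap *Scaf4* and *Trmt112* on the opposite strand by at most 16.4% and 19.1% of their lengths.

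Between the groups, *Sod3* rose in hMut and no mitochondrial enzyme passed the test, although *Sod2* and *Prdx3* had lower values in most hMut hearts. Counts scaled to library size (CPM) were compared for each gene between hMut and Ctrl, and *Sod3* was the only member past an adjusted p of 0.05, with a higher level in hMut. Thus 1 of 10 members was called, against a background of 4.62% of the 16195 tested genes in either direction and 3.48% in the direction of a higher level. At an unadjusted p under 0.05 there were 5 members, against 25.8% of all tested genes: *Sod2* and *Prdx3* on the lower side and *Sod3*, *Cat* and *Gpx3* on the higher side. The median log2 fold change was 0.02 over the 10 members and 0.00 over all tested genes.

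**Figure D2:**
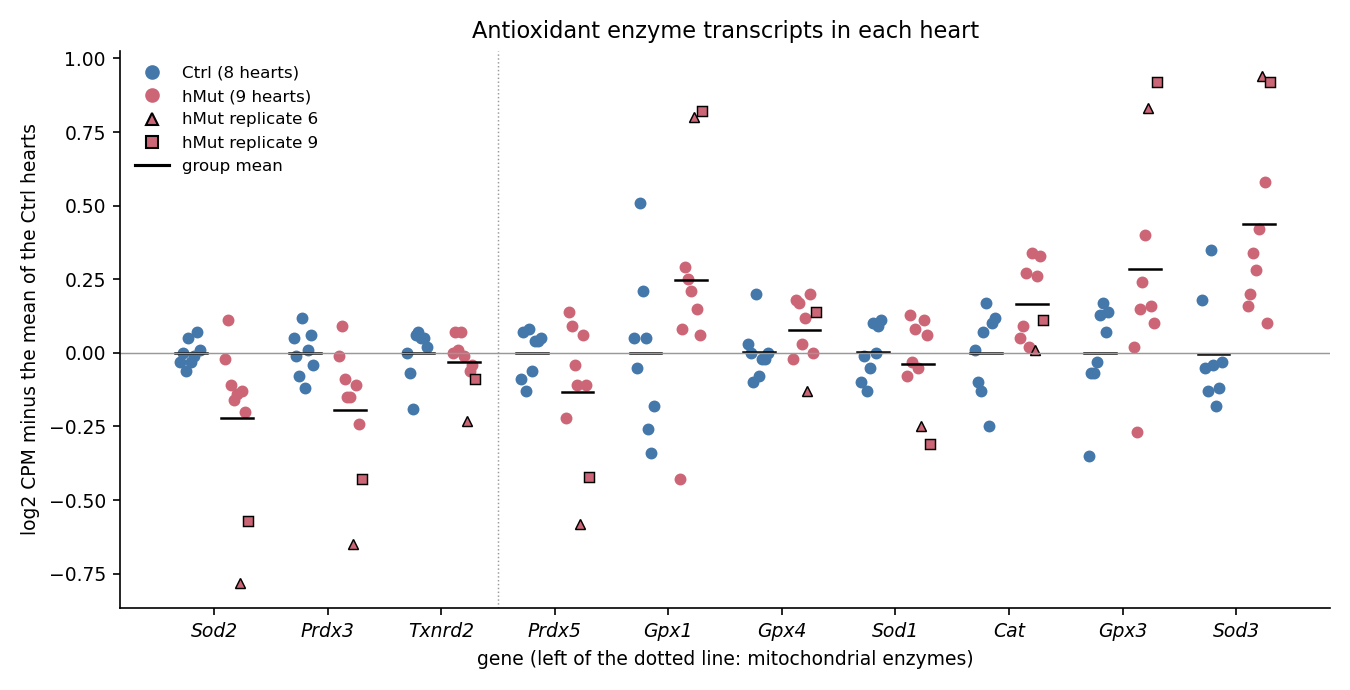
Transcript level of the 10 enzymes in each heart, as log2 CPM minus the mean of the 8 Ctrl hearts; blue points are Ctrl, red points hMut, and black lines group means. The hMut replicates 6 (triangle) and 9 (square) lay at the low end for *Sod2* and *Prdx3* and at the high end for *Sod3*, *Gpx3* and *Gpx1*.

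*Sod2* had 627 to 688 CPM in the Ctrl hearts with a median of 652. In the hMut hearts it had 381 to 709 CPM with a median of 593, and 381 and 440 CPM were the values of replicates 6 and 9. Of the 9 hMut hearts, 7 lay below every Ctrl heart, whereas replicate 2 was the highest of all 17. The hMut level was 0.869 times that of Ctrl (95% interval 0.761 to 0.994), but this did not pass the threshold (log2 fold change -0.20, SE 0.092, edgeR's quasi-likelihood test, Benjamini-Hochberg adjusted p = 0.176). The SD of log2 CPM for *Sod2* was 0.28 among hMut hearts and 0.04 among Ctrl hearts, a ratio of 6.3 and the widest of the 10 genes; this difference in spread was not tested. Without replicates 6 and 9 the hMut SD was 0.11, and the log2 fold change was -0.09 (adjusted p = 0.294 in edgeR's test).

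*Prdx3*, the matrix peroxiredoxin, had 273 to 322 CPM in Ctrl with a median of 297. In hMut it had 189 to 315 CPM with a median of 268, again with replicates 6 (189 CPM) and 9 (220 CPM) lowest. The groups overlapped, with 5 of 9 hMut hearts below every Ctrl heart and 8 of 9 below the Ctrl median. On the TPM scale, by contrast, group means were close, at 138 ± 8.25 TPM in Ctrl (SD, n = 8) and 137 ± 17 TPM in hMut (SD, n = 9) for *Sod2*, and at 422 ± 27.8 and 427 ± 41.3 TPM for *Prdx3*. TPM is a share of all transcripts, and mtDNA-encoded genes took 23.5% to 30.9% of counts in Ctrl and 15.9% to 23.0% in hMut; their part in this contrast of scales was not tested. In CPM the hMut level of *Prdx3* was 0.883 times that of Ctrl (95% interval 0.788 to 0.989, edgeR's test, Benjamini-Hochberg adjusted p = 0.161). *Prdx3* without replicates 6 and 9 gave a log2 fold change of -0.09 (adjusted p = 0.325 in edgeR's test).

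*Txnrd2*, the reductase of the same matrix pathway, differed little between hearts. It had 27.4 to 32.9 CPM in Ctrl and 26.6 to 32.8 CPM in hMut, with medians of 32.1 and 31.1, so the groups overlapped almost wholly. The 95% interval of the ratio was 0.915 to 1.05 (edgeR's test, Benjamini-Hochberg adjusted p = 0.699). Of the 9 hMut hearts, 7 lay below the Ctrl median. *Txnrd2* was also lowest of all 17 hearts in replicate 6, where it was 0.23 below the Ctrl mean in log2 CPM, against 0.78 for *Sod2* and 0.65 for *Prdx3* in the same heart. The difference between these genes was not tested.

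*Sod3* had 28.4 to 41.0 CPM in the Ctrl hearts with a median of 31.2, and 34.5 to 61.5 CPM in the hMut hearts with a median of 40.7. All 9 hMut hearts exceeded the Ctrl median and 4 exceeded every Ctrl heart, with 61.5 CPM in replicate 6 and 60.7 CPM in replicate 9. The ranges overlapped through Ctrl replicate 4 at 41.0 CPM and Ctrl replicate 1 at 36.5 CPM. *Sod3* was 1.38-fold higher in hMut (95% interval 1.16 to 1.64, log2 fold change 0.46, SE 0.12, edgeR's quasi-likelihood test, Benjamini-Hochberg adjusted p = 0.0357). Leaving out hMut replicates 6 and 9, the hearts with the highest *Sod3*, gave 1.23-fold and an adjusted p of 0.0604 in edgeR's test. For members in which these hearts were extreme, a smaller difference and spread without them follow from the choice of hearts.

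This call lay close to the threshold. It was lost in 10 of the 17 fits that left out 1 heart. In edgeR's test the adjusted p was 0.0592 without hMut replicate 5, 0.0515 without hMut replicate 6, 0.067 without hMut replicate 7 and 0.064 without hMut replicate 9. Among the controls it was 0.0631 without Ctrl replicate 2, 0.059 without replicate 3, 0.0666 without replicate 5, 0.072 without replicate 6, 0.0735 without replicate 7 and 0.0682 without replicate 8. The log2 fold change stayed between 0.39 and 0.51 in these 17 fits.

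*Gpx3*, which encodes the other secreted enzyme of the set, had 135 to 194 CPM in Ctrl with a median of 175. It had 143 to 326 CPM in hMut with a median of 192, and 4 of 9 hMut hearts lay above every Ctrl heart. Replicates 6 and 9 were again the highest, with 305 and 326 CPM. The ratio was 1.25 (95% interval 1.03 to 1.52) and was not called (edgeR's test, Benjamini-Hochberg adjusted p = 0.152). *Gpx3* without replicates 6 and 9 had a log2 fold change of 0.12, against 0.32 with all hearts.

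*Cat*, the peroxisomal enzyme, showed another pattern. It had 213 to 286 CPM in Ctrl and 255 to 322 CPM in hMut, with medians of 261 and 273. The 4 hMut hearts above every Ctrl heart were replicates 3, 5, 7 and 8, while replicates 6 and 9 had 255 and 273 CPM, within the Ctrl range. The ratio was 1.12 (95% interval 1.02 to 1.23, edgeR's test, Benjamini-Hochberg adjusted p = 0.139). Without replicates 6 and 9 the log2 fold change of *Cat* was 0.19, against 0.16 with all hearts. In limma-voom with quality weights, which gives outlying libraries less weight, *Cat* and *Sod3* both passed the threshold, against a background of 12.8% of tested genes called. DESeq2 called *Sod3* alone (adjusted p = 0.00561), against a background of 10.2% of the genes it tested.

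For the remaining 4 genes the 95% interval of the ratio included 1. *Gpx4* had 325 to 400 CPM in Ctrl and 319 to 401 CPM in hMut (ratio 1.06, 95% interval 0.978 to 1.14). *Sod1* had 141 to 166 CPM in Ctrl and 124 to 169 CPM in hMut (ratio 0.977, 95% interval 0.894 to 1.07), and its lowest values were those of replicates 9 and 6. *Prdx5*, which is partly mitochondrial, had 263 to 305 CPM in Ctrl and 193 to 318 CPM in hMut. The ratio was 0.921 (95% interval 0.817 to 1.04), and replicates 6 and 9 were lowest, as for *Sod2* and *Prdx3*. *Gpx1*, which encodes the general cytosolic peroxidase, had 2.46 to 4.47 CPM in Ctrl and 2.3 to 5.54 CPM in hMut, with the widest interval of the set (ratio 1.21, 95% interval 0.959 to 1.53).

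**Figure D3:**
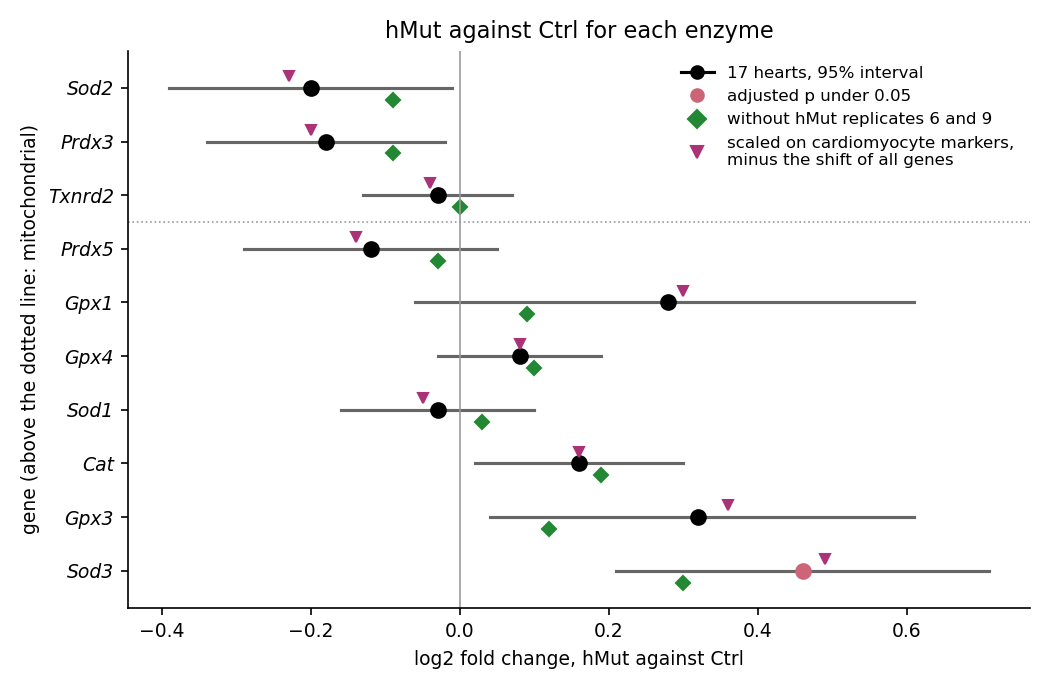
Log2 fold change of each enzyme, hMut against Ctrl, with the mitochondrial genes above the dotted line; lines are 95% intervals and the red point is the gene past the threshold. Diamonds leave out hMut replicates 6 and 9, and *Sod2* and *Prdx3* then lie at -0.09. Triangles show scaling on cardiomyocyte markers after subtraction of the shift of all genes, which largely returns the TMM values.

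For each heart, the mean log2 CPM of the 7 other enzymes was subtracted from that of the 3 mitochondrial enzymes, and the Ctrl mean of this difference was set to 0. The Ctrl hearts lay between -0.08 and 0.09 (SD 0.07). The hMut hearts lay between -0.78 and 0.07 with a median of -0.25, and 7 of 9 were below every Ctrl heart. Replicates 1 (0.07) and 2 (0.01) were the exceptions, and replicates 6 (-0.78) and 9 (-0.67) were lowest. Since the members were chosen with results of these data known, no p is given.

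The group difference of this measure was -0.30 on the log2 scale. Both sides contributed, as the mitochondrial mean was 0.15 lower and the other mean 0.15 higher in hMut. Among the others, log2 fold changes were largest for *Sod3* (0.46), *Gpx3* (0.32) and *Gpx1* (0.28), and negative for *Sod1* (-0.03) and *Prdx5* (-0.12). With both secreted enzymes left out of the rest the difference was -0.21, and without hMut replicates 6 and 9 it was -0.17. Counting *Prdx5* as mitochondrial gave -0.34. *Gpx1* and *Gpx4*, whose products are also partly mitochondrial, stayed among the others. Leaving out *Gpx1*, an alternative that was not planned, gave -0.28.

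**Figure D4:**
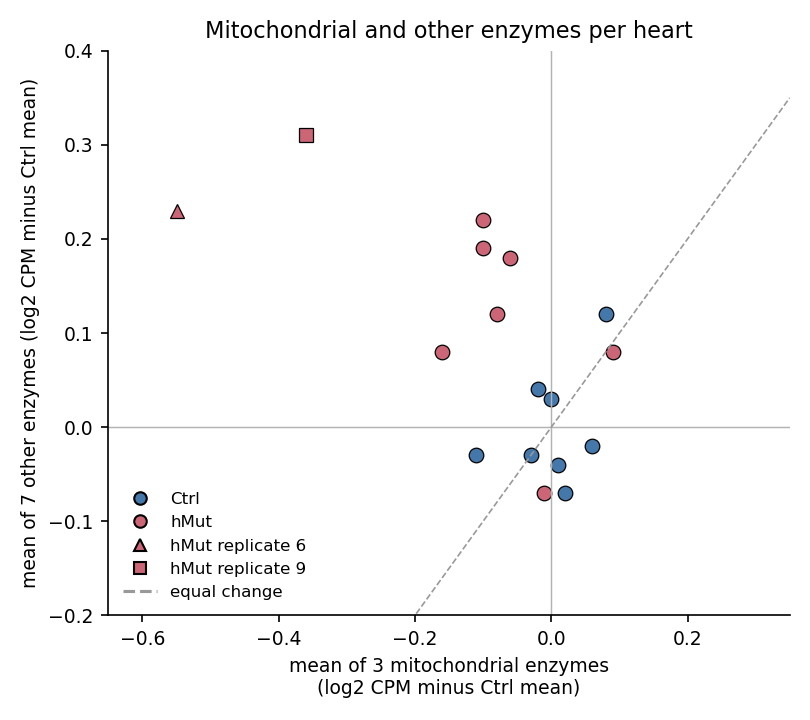
Mean of the 3 mitochondrial enzymes (horizontal) and of the 7 other enzymes (vertical) in each heart, both as log2 CPM minus the Ctrl mean; points on the dashed line changed equally. The 8 Ctrl hearts lie around the origin, 7 of 9 hMut hearts lie above and to the left of it, and replicates 6 and 9 are farthest to the left.

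Among the superoxide dismutases alone, the share of *Sod2* in their summed TPM was 57.9% ± 0.919 (SD, n = 8) in Ctrl and 52.9% ± 4.56 (SD, n = 9) in hMut. The share of *Sod3* was 7.65% ± 0.966 and 11.5% ± 4.01, and that of *Sod1* 34.4% ± 1.44 and 35.6% ± 1.71. In hMut replicate 6, *Sod2* made up 43.7% and *Sod3* 18.9%. In replicate 9 the shares were 48.1% and 17.7%. These shares depend on the lengths used, and with canonical lengths *Sod2* made up 74.6% in Ctrl and 70.1% in hMut.

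A bulk sample of heart cannot tell fewer cells of a type from less RNA per cell. The summed level of 15 cardiomyocyte markers was 43600 to 51200 CPM in Ctrl and 34600 to 50000 CPM in hMut, and the lowest sums were 34600 and 36100 CPM in replicates 9 and 6. All 15 log2 fold changes were negative, with a median of -0.15, and 0 of 15 passed the threshold in edgeR's test (9 at an unadjusted p under 0.05). The 10 macrophage markers summed to 285 to 415 CPM in Ctrl and 357 to 1390 CPM in hMut, with 1390 CPM in replicate 6 and 722 CPM in replicate 9, and 0 of 10 passed (7 at an unadjusted p under 0.05). The 10 fibroblast markers summed to 1840 to 2220 CPM in Ctrl and 1930 to 2860 CPM in hMut, and 0 of 10 passed (7 at an unadjusted p under 0.05). Endothelial markers, of which 3 of 10 were higher (*Kdr*, *Eng* and *Cldn5*), summed to 1340 to 1570 CPM in Ctrl and 1360 to 1890 CPM in hMut. Mural markers, of which *Pdgfrb* was higher, summed to 2740 to 3140 CPM in Ctrl and 2750 to 3340 CPM in hMut. The calls of these 4 markers were each lost in 9 to 15 of the 17 fits without 1 heart. Replicate 6 also had the highest sums of lymphocyte markers (76.1 CPM, Ctrl up to 50.2 CPM) and of atrial markers (762 CPM, Ctrl up to 228 CPM). Of the 8 tested atrial markers, *Bmp10* was higher in hMut, and their median log2 fold change was 0.12. This list also holds *Nppa*, which the study counts among markers of cardiac stress, so its sum is not a measure of atrial tissue alone. *Sln* (0 to 11 counts per library) and *Myl7* (0 to 19), also of the atrial list, were too low to be tested. Erythroid sums of 252 to 1390 CPM in Ctrl and 284 to 1100 CPM in hMut overlapped, as did adipocyte sums of 193 to 290 and 166 to 292 CPM, and no gene of these lists passed. Without hMut replicate 2, 4 cardiomyocyte markers passed as lower and 2 fibroblast markers as higher. That fit called 1792 genes in all, against 749 with all hearts. DESeq2 on all hearts gave the same counts for the cardiomyocyte and fibroblast markers, against a background of 10.2% of the genes it tested. limma-voom with quality weights called 6 cardiomyocyte markers lower and 2 fibroblast markers higher, against 12.8%. The part of these lists in the enzymes' levels was not tested.

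When libraries were instead scaled on the cardiomyocyte markers, the median log2 fold change of all genes moved up by 0.20. The directions of *Sod1*, *Prdx3*, *Prdx5* and *Txnrd2* then became positive, with raw log2 fold changes of 0.15, 0.0039, 0.06 and 0.17, and *Sod2* stood at -0.02. Rescaling moves all genes by a similar amount, so subtracting that shift largely returns the TMM values and is no separate check of direction. After the subtraction, *Sod1* was at -0.05, *Prdx3* at -0.20, *Prdx5* at -0.14 and *Txnrd2* at -0.04. *Sod2* was then at -0.23, *Sod3* at 0.49 and *Gpx3* at 0.36. On this scale 6 members passed the threshold in edgeR's test, against 31.2% of all tested genes: *Sod1*, *Sod3*, *Cat*, *Gpx3*, *Gpx4* and *Txnrd2*, all higher. *Sod2* in replicate 6 remained 0.36 below the Ctrl mean on this scale, while the Ctrl hearts lay between -0.07 and 0.09. In replicate 9 it was 0.09 below. This scaling moved the median of all genes up by 0.42 in replicate 6 and by 0.48 in replicate 9, so that *Sod3* and *Gpx3* read 1.35 and 1.25 above the Ctrl mean in replicate 6, and 1.40 above it for both genes in replicate 9. Under TMM normalization *Sod3* read 0.94 and 0.92 and *Gpx3* 0.83 and 0.92 above it in these hearts.

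The 3 genes whose level followed *Sod3* most closely across the 17 hearts, after the group means were taken off, were *Dhx37* (Pearson's r = 0.95), *Plekho1* (0.91) and *Marchf5* (0.91). These values are descriptive, and replicates 6 and 9 weigh on them: without both, over 15 hearts, r was 0.87, 0.78 and 0.79. *Dhx37* was also higher in hMut, with 22.2 ± 4.12 CPM (SD, n = 9) against 16.0 ± 1.57 CPM (SD, n = 8; edgeR's test, Benjamini-Hochberg adjusted p = 0.0103). The other two did not pass (adjusted p = 0.109 and 0.235 in edgeR's test).

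Outside the 10 enzymes, 8 lists of redox genes held 155 tested genes, of which 20 were higher and 1 lower in hMut. This is 13.5% of them, against 4.62% of all tested genes, and their median log2 fold change was 0.00. The lists were chosen with earlier results of these data known. This share and the list counts below are therefore descriptions, and an excess was not tested. Of the 25 tested relatives with thiol chemistry (other peroxidases, peroxiredoxins, thioredoxins, glutaredoxins and their partners), 4 were higher and 0 lower. *Txnrd1*, the cytosolic counterpart of *Txnrd2*, had 66.3 to 86.8 CPM in Ctrl and 86.9 to 117 CPM in hMut without overlap, as 0.605% of all tested genes did and 0 of the 10 members. The log2 fold change of *Txnrd1* was 0.44 (SE 0.065, edgeR's test, Benjamini-Hochberg adjusted p = 0.000604). *Srxn1* (log2 fold change 0.81), which repairs overoxidised peroxiredoxins, the stress-induced sestrin gene *Sesn2* (1.29) and the glutathione reductase gene *Gsr* (0.21) also rose. The *Gsr* call was lost in 10 of 17 fits without 1 heart, with an adjusted p of up to 0.0707 in edgeR's test (hMut replicates 3, 5, 6, 7 and 9 and Ctrl replicates 1, 5, 6, 7 and 8), and those of *Txnrd1*, *Srxn1* and *Sesn2* in 0 of 17. The other peroxiredoxin genes were not called, at log2 fold changes of -0.03 for *Prdx1*, -0.15 for *Prdx2*, 0.17 for *Prdx4* and -0.07 for *Prdx6*. *Txn2*, the partner of *Prdx3* and *Txnrd2* in the matrix, had 191 ± 8.72 CPM in Ctrl (SD, n = 8) and 187 ± 18.8 CPM in hMut (SD, n = 9).

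Selenoprotein genes other than the members showed 3 higher and 0 lower of 16 tested: *Txnrd1*, the deiodinase gene *Dio2* (log2 fold change 1.66) and *Selenow* (0.32). The *Selenow* call was lost in 13 of 17 fits without 1 heart (adjusted p up to 0.0839 in edgeR's test), those without hMut replicates 3, 4, 5, 6, 7 or 9 or any Ctrl replicate from 1 to 7. *Dio2* had a log2 fold change of 0.98 without hMut replicates 6 and 9 (adjusted p = 0.0266 in edgeR's test) and was not called with the replicate block (adjusted p = 0.0849 in edgeR's test). Of 11 genes for making selenocysteine, inserting it or handling selenium, 0 passed in edgeR's test and 3 had an unadjusted p under 0.05. Those with the smallest p were *Selenbp1*, a selenium-binding protein gene, at a log2 fold change of -0.41 and *Secisbp2l* at 0.14.

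A list of genes around the supply of NADPH, the reductant behind the thioredoxin and glutathione systems, showed 3 higher and 0 lower of 20. Not every enzyme of this list makes NADPH itself. The mitochondrial folate enzyme gene *Mthfd2* rose from a median of 4.41 CPM in Ctrl to 67.7 CPM in hMut, *Aldh1l2* from 9.09 to 20.5 CPM, and *Pgd* of the pentose phosphate pathway from 32.6 to 37.2 CPM. The *Pgd* call was lost in 14 of 17 fits without 1 heart (adjusted p up to 0.0821 in edgeR's test), those without hMut replicates 3, 4, 5, 6, 7 or 9 or any Ctrl replicate. Oxidases that release hydrogen peroxide or superoxide showed 3 higher and 0 lower of 21: the monoamine oxidase gene *Maoa* on the outer mitochondrial membrane (log2 fold change 2.16), *Acox2* of the peroxisome (2.01) and *Ero1a* of the endoplasmic reticulum (0.59). *Ero1a* lost its call in 9 of 17 fits without 1 heart (adjusted p up to 0.0672 in edgeR's test), those without hMut replicates 5, 6 or 7 or Ctrl replicates 1, 2, 5, 6, 7 or 8. Without hMut replicate 2, 8 NADPH genes (5 higher, 3 lower), 6 oxidases (5 higher, 1 lower) and 5 selenoprotein genes (all higher) passed, and without hMut replicate 1, 5 NADPH genes. Calls over all genes rose as well, from 749 to 1792 without hMut replicate 2 (1128 higher, 664 lower) and to 1182 without hMut replicate 1.

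Around *Cat*, the peroxisome list of 37 tested genes showed 0 past the threshold in edgeR's test and 15 at an unadjusted p under 0.05. Without hMut replicate 2, 5 of its genes passed, all lower, in a fit that called 1792 genes in all (664 lower) against 749 (185 lower) with all hearts. DESeq2 called 3 lower and 0 higher, against a background of 10.2% of the genes it tested. limma-voom with quality weights called 6 lower and 1 higher, against 12.8%. The median log2 fold change of the list was -0.12 in edgeR's fit, and 5 of 37 were positive, while *Cat* stood at 0.16. *Gnpat*, an enzyme of ether lipid synthesis, and the peroxin gene *Pex11g* had the smallest p, with log2 fold changes of -0.20 and -0.34.

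Among 16 regulators of antioxidant genes, 2 were higher and 1 lower. The small MAF factors *Maff* (log2 fold change 0.82) and *Mafk* (0.52) rose. *Ppargc1a*, the coactivator of mitochondrial biogenesis that is known to act on *Sod2*, fell by 0.29 on the log2 scale (SE 0.058, edgeR's test, Benjamini-Hochberg adjusted p = 0.00812), and 8 of 9 hMut hearts lay below every Ctrl heart. On the cardiomyocyte scale the value for *Ppargc1a* was -0.10 (adjusted p = 0.188 in edgeR's test). *Nfe2l2*, which encodes NRF2, had 57.9 ± 4.68 CPM in Ctrl (SD, n = 8) and 62.1 ± 9.05 CPM in hMut (SD, n = 9) and was not called.

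**Figure D5:**
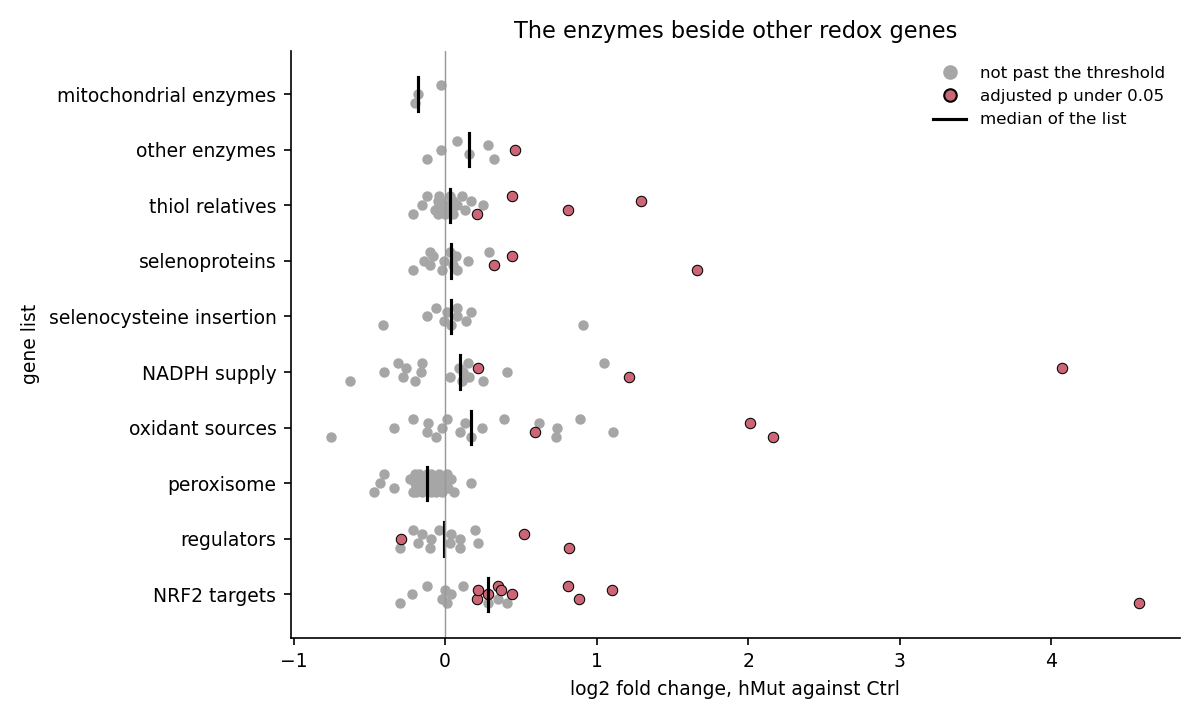
Log2 fold change, hMut against Ctrl, of the tested genes in each list; red points passed an adjusted p of 0.05 and black lines are list medians. The peroxisome list lies mostly left of 0 with a median of -0.12 and no red point, and the NRF2 target list has 10 red points of 21, a count that is 5 without Ctrl replicate 7 or 8.

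Common NRF2 targets showed 10 higher and 0 lower of 21, against a background of 3.48% of all tested genes higher in hMut. Their median log2 fold change was 0.28. The count was lower without some hearts: 5 without Ctrl replicate 7 or Ctrl replicate 8, and 6 without Ctrl replicate 1, Ctrl replicate 6, or hMut replicate 5, 6, 7 or 9. It was also 5 without both hMut replicates 6 and 9 and 5 with the replicate block. The list contains *Txnrd1*, *Srxn1*, *Gsr* and *Pgd* named above and none of the 10 enzymes. *Nqo1*, also in the list, stood at a log2 fold change of 0.04 (adjusted p = 0.784 in edgeR's test). The cystine carrier gene *Slc7a11* had 0.0282 to 0.349 CPM in Ctrl, which is at or near the counting floor, and 0.743 to 5.27 CPM in hMut, and *Gclc*, the catalytic subunit of glutathione synthesis, rose by a log2 fold change of 0.35.

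The promoters were read for the core of the antioxidant response element, to which NRF2 with a small MAF partner binds. The letters TGACNNNGC were searched on both strands, from 250 bases before to 50 bases after each RefSeq start (GRCm38.p6). They were present for 14% of 27025 genes and for 1 of the 9 members with a promoter entry (*Sod1*). *Sod3* had no promoter entry and was not searched. Of 17 NRF2 targets with an entry, 9 held a match. Of the 9 NRF2 targets with a match, 5 were higher in hMut, and of the 8 without a match 2 were, *Slc7a11* among them; *Mgst1* and *Gsta3* had a match and log2 fold changes of -0.30 and -0.22, not called. As examples of the letters, the window of *Sod1* and those of *Srxn1* and *Txnrd1*, both thiol relatives, are shown with the match in capitals, in GRCm38.p6 coordinates and on the strand of the gene.
Sod1 (chr16:90220696-90220725): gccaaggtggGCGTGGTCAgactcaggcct
Srxn1 (chr2:152105542-152105571): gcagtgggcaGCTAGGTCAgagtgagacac
Txnrd1 (chr10:82859104-82859133): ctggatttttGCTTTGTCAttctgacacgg
All 3 matches lie on the opposite strand of the gene, so the letters read as the reverse complement. *Sod1*, with a match, had a ratio of 0.977, and *Cat* and *Gpx3*, without these letters in the window, had 1.12 and 1.25. For *Txnrd1*, 1 of 3 promoter entries held a match. A match in this window is a description of the sequence and not of a bound site.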

How the data were processed

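Hearts of 9 hMut and 8 Ctrl mice were assigned by the sample labels, whose library numbers serve as replicate numbers. Per the study's methods, poly(A) libraries were run on an Illumina NovaSeq X Plus. Reads were trimmed by fastp, mapped by HISAT2 (2.2.1) on GRCm39, and summed over genes by featureCounts (2.0.6). The authors deposited raw counts for 56748 genes, not normalized. Strand use in counting, sex and the age of each mouse are not given in the sources used here.

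edgeR's quasi-likelihood test (edgeR 4.0.16, R 4.3.3) was applied to the counts after TMM normalization and filterByExpr, which left 16195 genes, with group as the only term and Benjamini-Hochberg adjustment over all of them (threshold 0.05). The procedure was tested on simulated data. The SE is derived from the F statistic, and 95% intervals use the degrees of freedom of the fit. CPM uses TMM library sizes, log2 CPM a prior count of 2, and TPM the lengths in the table. The p-values test the difference between groups against the spread between mice. Over 136 pairs of libraries Spearman's correlation of counts across the tested genes was 0.950 to 0.995, so each library differed from every other.

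The members and lists were chosen with earlier results of these data known. The text names the 10 members, of each redox list the called genes with the smallest adjusted p (up to 4), or the 2 with the smallest p where none passed, the 3 genes most correlated with a called member, genes overlapping a member, and *Polg*; the other peroxiredoxin genes, *Txn2*, *Nfe2l2* and the called genes of the marker lists were added after their values were seen. Of the NRF2 list, *Slc7a11* and *Gclc* are named by this rule beside those of other lists. *Nqo1*, *Mgst1* and *Gsta3* of that list, not called, are named in addition. Alternatives were DESeq2 (1.42.0), limma-voom with quality weights (limma 3.58.1), RLE and upper-quartile normalization, scaling on cardiomyocyte markers, other filters (none, or at least 50 counts in 8 libraries), only protein-coding nuclear genes, sex read from *Xist* and Y-linked counts, the replicate number as a block, and each library left out. Copies were sought with BLAST 2.17.0 (at least 90% identity over 300 bases). Python 3.11.15, pandas 2.3.3, numpy 2.4.6, scipy 1.17.1 and matplotlib 3.10.9 were used. Promoter sequences are RefSeq's. Protein sequences were not used here. A gene that the naming rule covers is not reported here.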

Additional observations from a re-analysis of the deposited data

Results flagged for a closer look

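In groups of 8 or 9 hearts, the highest or lowest value was compared with the gap to its neighbour (Dixon's test at 95%) for each of the 10 enzymes and for the difference between mitochondrial and other enzymes. Of 22 groups, 2 held a value that stood apart, and chance gives about 5% of groups. *Gpx3* in Ctrl replicate 1 was 135 CPM, below the 164 to 194 CPM of the other Ctrl hearts. *Gpx4* in Ctrl replicate 4 was 400 CPM, above the 325 to 355 CPM of the others. The hMut replicates 6 and 9 did not meet this criterion, which looks for a single value that is apart from all others in its group.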

How the results depend on the processing

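Directions and calls of single enzymes were recomputed under 28 alternatives. The directions of *Sod2*, *Sod3*, *Cat*, *Gpx1*, *Gpx3* and *Gpx4* held in all of them. Scaling on cardiomyocyte markers moved the median of all genes up by 0.20 and gave *Sod1* (0.15), *Prdx3* (0.0039), *Prdx5* (0.06) and *Txnrd2* (0.17) a positive sign. With that shift subtracted they read -0.05, -0.20, -0.14 and -0.04. The subtraction largely returns the TMM values and is no separate check of direction. Leaving out hMut replicates 6 and 9 reversed *Sod1* (0.03) and *Txnrd2* (0.0048). The members called were 2 with limma-voom and quality weights, 6 with cardiomyocyte scaling, 0 without replicates 6 and 9, and 0 to 1 without 1 heart. Over the alternatives the adjusted p of *Sod3* ran from 0.00514 to 0.154.

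The 749 genes called in all became 1524 with DESeq2, 2081 with limma-voom, 5057 with cardiomyocyte scaling (4949 higher and 108 lower, against 564 and 185), 463 without a filter, 431 without replicates 6 and 9, and 395 to 1792 without 1 heart. The other redox genes called were 21, then 38 with limma-voom, 64 with cardiomyocyte scaling and 14 to 38 without 1 heart. The difference between mitochondrial and other enzymes of -0.30 became -0.21 without the secreted enzymes, -0.17 without replicates 6 and 9, and -0.34 to -0.24 without 1 heart. Ranks in TPM differed for 5 genes with canonical lengths, for 2 in the hMut hearts and for 0 to 2 without 1 heart. Adding the reads of *Gpx4-ps2* to *Gpx4* left its log2 ratio at 0.07. Causes were not tested.

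Whether replicate numbers pair the mice is not given in the sources used here. Correlations of same-numbered deviations ran from -0.225 to 0.339, and 1 of 8 pairs exceeded 0.1. They were not compared with pairs of different numbers and do not settle this. With the replicate block, 185 genes, 0 members (*Sod3* adjusted p = 0.154 in edgeR's test) and 12 other redox genes were called.

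Depth limits *Gpx1*, with 85 to 246 counts per library. Beyond that, strand use, the pooled exon lengths and the copy of *Gpx4* limit levels between genes, and 2 of 9 hMut hearts carry much of the difference between groups.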
